A study of Mus musculus with 54 samples.

Results

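Clustered histone genes were followed across 40 RNA libraries of group 2 innate lymphoid cells (ILC2s), lymphocytes that secrete type 2 cytokines, taken from the small intestine. Membership goes by gene name. The set holds every row of the 2 deposited expression tables whose symbol begins with H2ac, H2bc, H3c, H4c or Hist1h to Hist4h, or names a linker histone as H1f and a digit. The rule found 45 genes of 10990 listed in either table, with 45 in the culture table and 33 in the table of nILC2 and iILC2, all 33 of them also in the first. By protein, the 45 comprised 4 linker histones (H1), 14 H2A, 9 H2B, 10 H3 and 8 H4 genes. The 12 members listed in the culture table alone were H2ac7, H2ac10, H2ac13, Hist1h2an, Hist1h2bq, H3c7, H3c10, H3c14, H4c2, H4c8, H4c14 and Hist1h4n.

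All libraries came from C57BL/6 mice aged 8 to 12 weeks, and the labels state that males and females were pooled. In the culture experiment, 24 libraries of WT ILC2s formed 6 groups of 4. These cells were held for 4, 48 or 72 h in IL-2 and IL-7, with or without IL-25, a cytokine of epithelial cells to which ILC2s respond. The other 16 libraries compared genotypes and cell types in 4 groups of 4: iILC2 KO, iILC2 CTRL, nILC2 KO and nILC2 CTRL. KO stands for the genotype given as Rxrg-/- (Rxrg encodes retinoid X receptor gamma), and CTRL for WT, given as Rxrg+/+. All 16 were labelled IL-25 and 48 h. How Rxrg was deleted is not spelled out, although the name of the deposited values for these genotypes holds the abbreviation Ctrl_cKO. What the prefixes n and i stand for and which libraries came from separate mice are not given in the sources used here. For this reason p-values measure the spread between libraries, which may be technical. Cells had been isolated by flow sorting, and RNA was measured with Smart-seq2.

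Values are TPM, transcript abundances scaled to gene length and to each library's total, so levels of different genes can be set side by side. TPM keep no read totals, so the depth of each library and its counting error are unknown. Differences are given as log2(TPM + 1) means of 4 libraries against 4 with their standard error, on a scale that understates changes of low genes. They were tested with limma over all genes of a table, with Benjamini-Hochberg adjustment, and called means an adjusted p under 0.05.

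Most of these genes encode the replication-dependent histones, which package newly made DNA and are transcribed mainly in S phase, the part of the cell cycle in which DNA is copied. H2A, H2B, H3 and H4 form the core around which DNA winds, and H1 binds the linker between cores. The genes lie in tandem clusters, are short and lack introns in most cases, and their main transcripts end in a conserved stem-loop instead of a poly(A) tail. SLBP binds that stem-loop and NPAT drives transcription of the clusters in S phase. H1f0 differs from the others: it is a replacement linker histone with a polyadenylated transcript that is known for its level in resting and differentiated cells. Smart-seq2 primes on poly(A), and how far stem-loop transcripts entered these libraries was not tested. In addition, many members are near-identical in sequence, so reads can be split between copies in ways that differ by library, and levels of single copies are uncertain.

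By symbol, 39 of the 45 members were matched to RefSeq (GRCm38.p6, the assembly of mm10). Of these, 30 lie on chromosome 13 between bases 21716412 and 23757386, 8 lie on chromosome 3 between bases 96220413 and 96269155, and H1f0 lies alone on chromosome 15. The RefSeq spans of H1f0, H2bc4, H2bc6 and H2bc21 are longer than those of the other matched members, which run over 375 to 911 bases. In 4 cases an H2A and an H2B gene lie within 500 bases of each other. These are H2ac8 and H2bc8 with 179 bases between them, H2ac20 and H2bc21 with 191, H2ac6 and H2bc4 with 239, and H2ac11 and H2bc11 with 248.

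Upstream sequences are shown to describe the members by a feature that the naming rule did not use, and whether these motifs go with any change in level was not tested. The 250 bases before the start were searched in the 35 members with a RefSeq promoter entry and in 32851 promoter entries in all. CCAAT, the box bound by NF-Y, was searched on both strands and was found in 29 members (82.9%), against 33.8% of all entries. It was present in 3 of 4 H1, 11 of 11 H2A, 6 of 6 H2B, 7 of 9 H3 and 2 of 5 H4 promoters. The octamer ATTTGCAT, bound by OCT1, was searched on both strands and was found in 7 members (20%), 4 of them H2A and 3 H2B, against 1.6% of all entries. TATAAA, searched on the gene's strand, was found in 11 members (31.4%), against 7.59% of all entries. These motifs do not overlap in the sequences printed here, and a match describes letters only. In the lines below, capitals mark the 3 motifs and everything else is in lower case, 5′ to 3′ on the gene's strand, ending at the base before the start. H2bc11 (chr13:22042948-22043197, + strand) is shown because its window fills the stretch shared with H2ac11, H2ac6 (chr13:23683960-23684209, - strand) because it holds all 3 motifs, and H2bc12 (chr13:22035671-22035820, + strand) because it was listed at 0 in all libraries at 4 h and was higher with IL-25 at both later times. H4c9 (chr13:22041363-22041512, - strand) and H3c11 (chr13:21783398-21783547, - strand) are the H4 and H3 members with the highest level in iILC2. H1f0 (chr15:79028062-79028211, + strand) holds none of the 3 motifs.
H2bc11: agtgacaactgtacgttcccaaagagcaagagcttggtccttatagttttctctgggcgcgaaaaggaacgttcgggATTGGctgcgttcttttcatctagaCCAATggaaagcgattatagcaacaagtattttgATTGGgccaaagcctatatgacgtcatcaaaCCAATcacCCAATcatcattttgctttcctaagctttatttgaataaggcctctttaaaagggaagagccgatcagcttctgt
H2ac6: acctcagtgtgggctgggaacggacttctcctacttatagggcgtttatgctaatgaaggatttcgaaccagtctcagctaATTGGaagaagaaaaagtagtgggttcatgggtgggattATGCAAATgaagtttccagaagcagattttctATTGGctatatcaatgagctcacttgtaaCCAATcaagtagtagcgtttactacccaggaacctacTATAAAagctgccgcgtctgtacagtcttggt
H2bc12: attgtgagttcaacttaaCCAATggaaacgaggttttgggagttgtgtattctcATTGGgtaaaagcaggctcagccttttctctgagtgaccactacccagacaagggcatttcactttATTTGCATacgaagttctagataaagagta
H4c9: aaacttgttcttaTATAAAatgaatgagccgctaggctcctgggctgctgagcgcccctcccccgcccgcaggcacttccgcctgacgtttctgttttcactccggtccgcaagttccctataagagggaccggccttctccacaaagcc
H3c11: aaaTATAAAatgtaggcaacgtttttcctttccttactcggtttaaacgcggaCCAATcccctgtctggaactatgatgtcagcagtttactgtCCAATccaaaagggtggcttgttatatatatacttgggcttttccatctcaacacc
H1f0: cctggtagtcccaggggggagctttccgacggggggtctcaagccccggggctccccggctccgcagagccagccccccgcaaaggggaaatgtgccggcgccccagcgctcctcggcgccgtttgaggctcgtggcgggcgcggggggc

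The 12 markers of ILC2s fixed for this check, among them Gata3, Il7r and Rora, were all listed and summed to 1093 to 7013 TPM per library. Of the marker lists of other cells, each table listed 2 of 10 T cell, 2 of 7 B and plasma cell, 2 of 7 myeloid and 2 of 7 epithelial genes and none of 5 mast cell genes, with Cd3g, Cd79b, Sdc1, Cd68, Epcam and Krt18 in both tables, Cd3e and Fcgr3 in the culture table alone and Cd5 and Itgam in the other alone. The T cell receptor constant genes on the list (Trac, Trbc2 and Trdc), Cd4, Cd8a, Lyz2 and Vil1 were listed in neither table. Of 5 red cell genes, Hba-a1 was listed in both tables, Hba-a2 in the culture table alone, and Hbb-bs, Hbb-bt and Alas2 in neither. The targeted gene Rxrg had 2.58, 1.76, 1.27 and 3.12 TPM in nILC2 KO, against 12.3, 17.4, 12.2 and 18.4 TPM in nILC2 CTRL. In iILC2 it had 0.26, 0.48, 0 and 0.38 TPM in KO, against 1.72, 1.83, 1.26 and 1.68 TPM in CTRL. Rxrg was lower in every KO library than in every CTRL library of the same cells, but it was still listed above 0 in 7 of the 8 KO libraries. Per library, all listed genes together held 849733 to 898025 TPM.

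Clustered histone transcripts were scarce at 4 h and abundant in every other group. All members together held 0.02% of the listed TPM at 4 h without IL-25 and 0.0136% with it. At 48 h they held 0.486% without IL-25 and 0.473% with it, and at 72 h 0.384% and 0.313%. In the other table, which lists 33 members, the share was 0.659% in iILC2 CTRL and 0.272% in nILC2 CTRL. With IL-25 the members summed to 122 ± 21.9 TPM after 4 h, 4209 ± 672 after 48 h and 2789 ± 237 after 72 h (SD, n = 4). Without IL-25 the sums were 177 ± 15.7 TPM after 4 h, 4264 ± 486 after 48 h and 3382 ± 803 after 72 h. Over the 33 members of the other table, iILC2 KO reached 5369 ± 546 TPM and iILC2 CTRL 5817 ± 462, nILC2 KO 2617 ± 771 and nILC2 CTRL 2339 ± 240.1. These sums are descriptions with no test, and they are not compared across the tables. In bulk libraries a lower share of cells in S phase and less histone RNA per cell cannot be told apart.

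One listed entry, Hist1h2ap, dominated the sums. Its symbol is a synonym of 2 RefSeq genes, and reads can be split between near-identical copies, so its level may not be that of a single gene. Hist1h2ap, an H2A entry, held 74.2% of the members' TPM at 48 h without IL-25 and 81.9% in iILC2 CTRL, but 13.2% at 4 h without IL-25. Without it the members summed to 1097 ± 125 TPM at 48 h, against 153 ± 20.03 TPM at 4 h, both without IL-25. At 4 h H2ac19 and H2ac18 were the highest members, and in the other 8 groups Hist1h2ap was first and H3c11 second. By class at 48 h without IL-25, H2A summed to 3496 ± 444 TPM, H3 to 479.6 ± 63.9, H2B to 131 ± 15.2, H4 to 95.5 ± 10.6 and H1 to 61.6 ± 9.55 (SD, n = 4). The ranges of H2A and H3 did not overlap each other or those of the smaller classes.

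**Figure D1:**
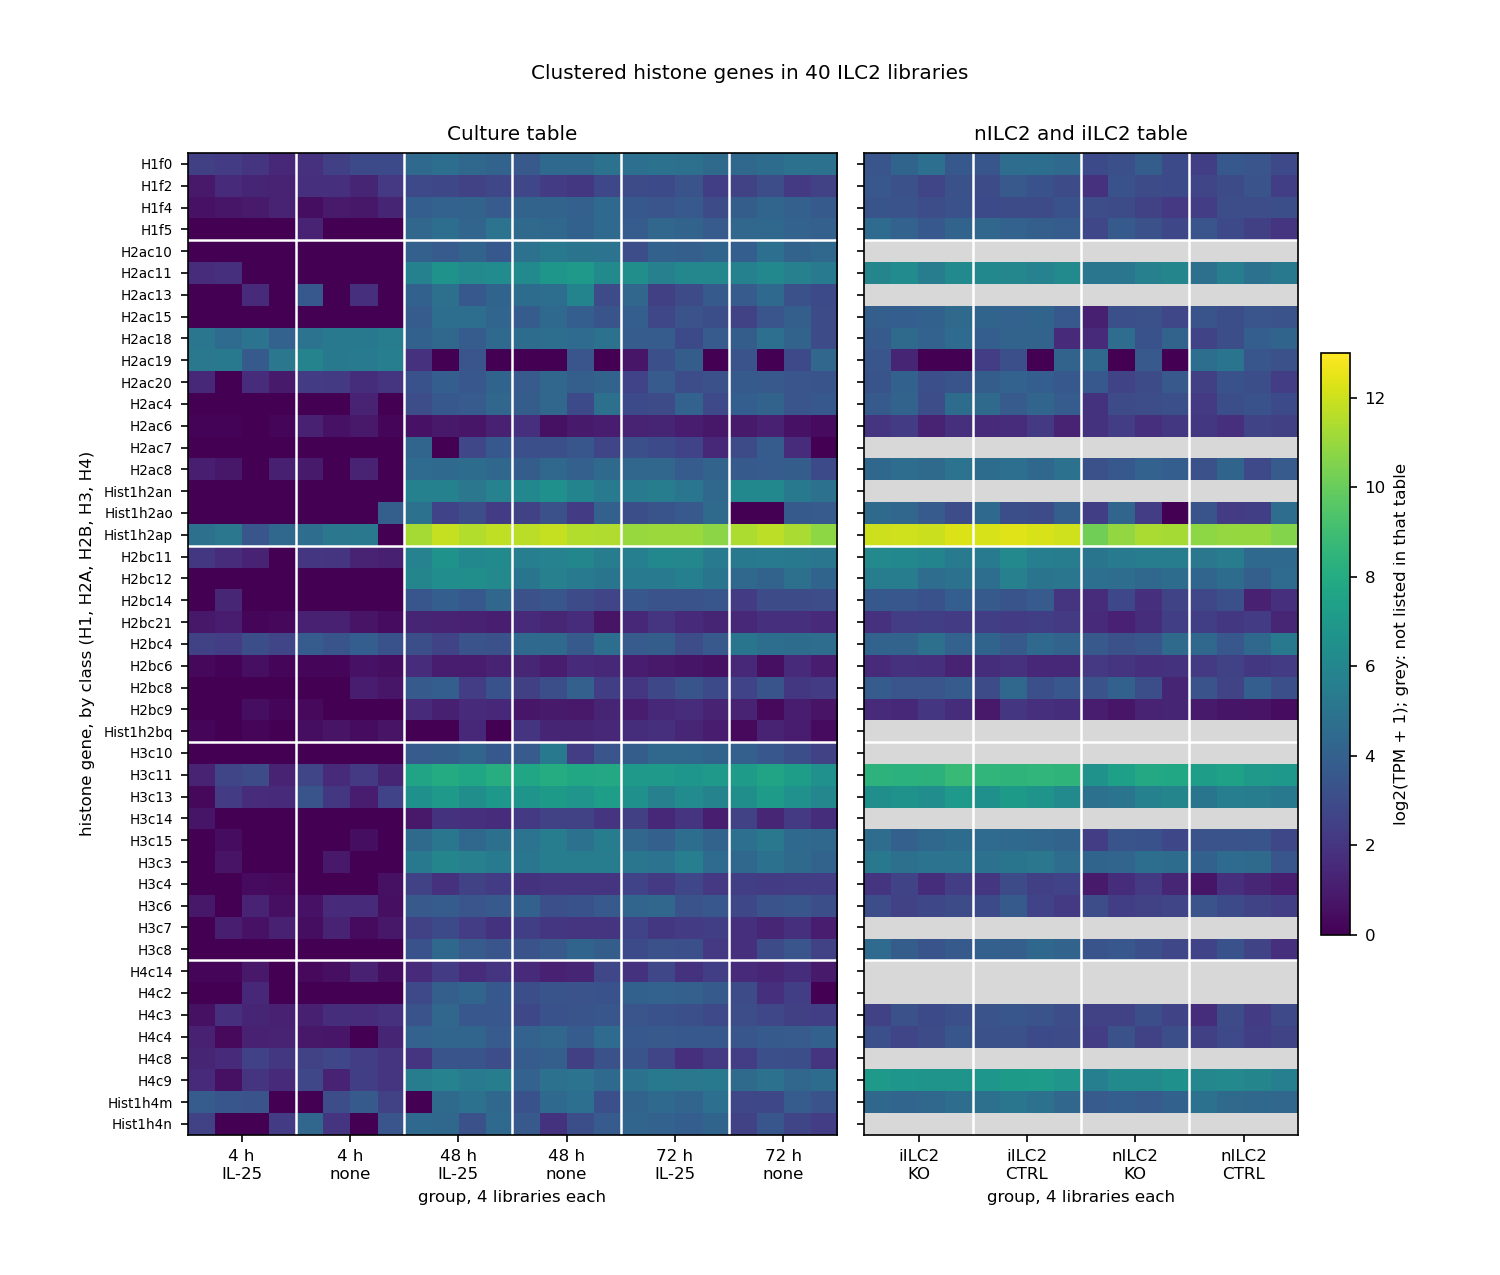
Level of each clustered histone gene (rows, by protein class) in each library (columns, 4 per group) as log2(TPM + 1), with the culture table on the left and the nILC2 and iILC2 table on the right. The 8 libraries at 4 h are dark in nearly all rows except H2ac18, H2ac19 and, in most of these libraries, Hist1h2ap. The Hist1h2ap row is the brightest in the other groups, and grey rows are the 12 members not listed in the table on the right.

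**Figure D2:**
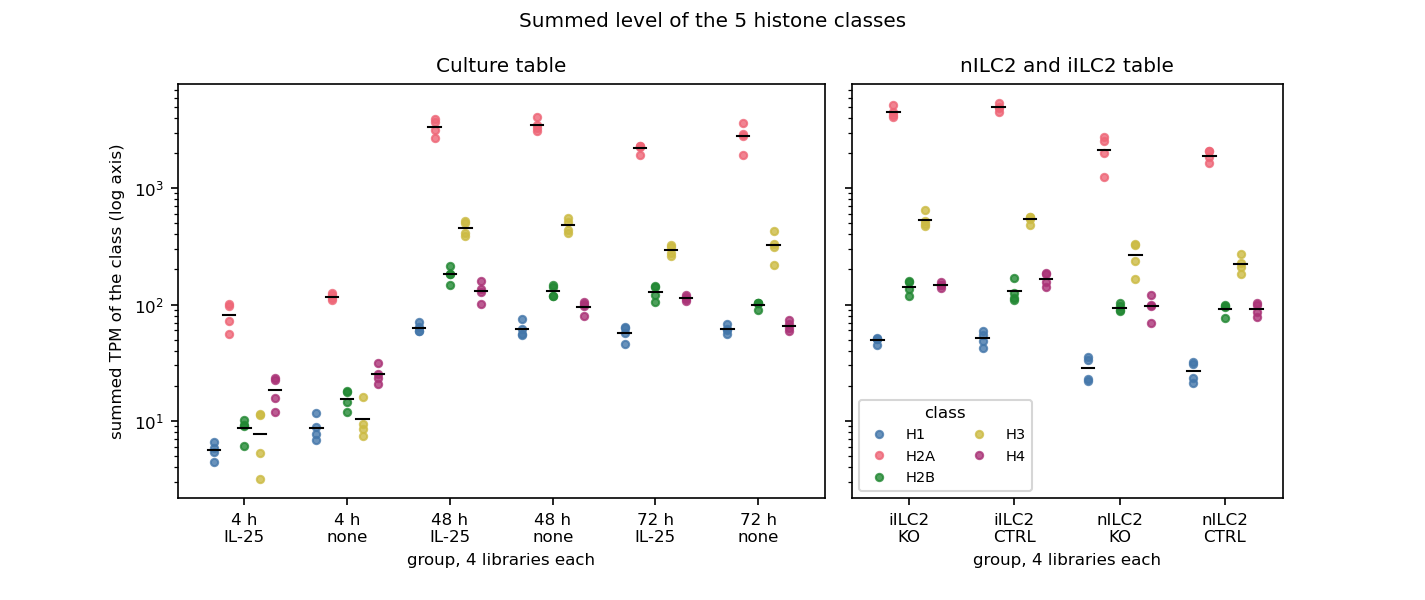
Summed TPM of the members of each protein class (colours) per library on a log axis, by group, with points for the 4 libraries and lines for the mean. Every class lies lower at 4 h than at 48 or 72 h, and in both genotypes the iILC2 points lie above the nILC2 points for all 5 classes.

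The main contrast was between 48 h and 4 h of culture. Without IL-25, 39 of 45 members were higher at 48 h, H2ac19 was lower, and 5 passed no test (H2ac18, H2ac6, H2bc21, Hist1h4m and Hist1h4n). Of all genes tested, 64.4% were called and 19.9% were higher. The median log2 difference was 2.55 over the members and -0.28 over all genes. With IL-25, 40 were higher, H2ac19 was lower, and H2ac18, H2bc4, Hist1h2bq and Hist1h4m passed no test, where 72.2% of all genes were called and 27.6% were higher. There the medians were 3.07 over the members and -0.24 over all genes. In each condition 11 members had a group listed at 0, and the median over the other 34 was 1.91 without IL-25 and 2.58 with it. The 7 members listed at 0 in all 8 libraries at 4 h (H2ac7, H2ac10, H2ac15, Hist1h2an, H2bc12, H3c8 and H3c10) entered the tests only through later groups and so had to differ. Other members also passed the filter of 1 TPM in 4 libraries only through later groups, among them H1f4, H1f5, H2ac4, H2bc8, H3c3 and H3c15. For this reason these counts, and the p-values of such members in the paragraphs below, serve as a description and support nothing further.

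All 4 linker histone genes were higher at 48 h in both conditions. H1f5, which encodes the subtype H1.5, had 21.8, 20.1, 15.7 and 20.4 TPM at 48 h, against 1.39, 0, 0 and 0 TPM at 4 h without IL-25 (log2 difference 4.04 ± 0.22, adjusted p = 6.84e-14). H1f4, which encodes H1.4, had 16.7, 16.5, 14.9 and 20.9 TPM at 48 h, against 0.41, 0.9, 0.77 and 1.55 TPM at 4 h (log2 difference 3.28 ± 0.19, adjusted p = 1.21e-13). H1f0, the replacement linker histone, had 11.3, 20.5, 20.6 and 27.9 TPM at 48 h, against 2.66, 4.49, 6.58 and 6.66 TPM at 4 h (log2 difference 1.79 ± 0.25, adjusted p = 8.05e-07). No library at 48 h overlapped those at 4 h for these genes. H1f2, which encodes H1.2, averaged 4.76 ± 1.35 TPM at 48 h and 2.41 ± 0.769 TPM at 4 h (log2 0.76, adjusted p = 0.00427). With IL-25 the log2 differences were 4.53 for H1f5, 3.07 for H1f4, 2.37 for H1f0 and 1.48 for H1f2, all called.

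Among H2A genes, 11 of 14 were higher at 48 h without IL-25 and 12 with it. Hist1h2ap had 3227, 3718, 2912 and 2811 TPM at 48 h, against 24.4, 34.3, 35.3 and 0 TPM at 4 h without IL-25 (log2 difference 7.87 ± 0.66, adjusted p = 1.79e-10). With IL-25 it had 2450.4, 3662, 2929.8 and 3409.8 TPM at 48 h, against 26.4, 34, 10.03 and 19.5 TPM at 4 h (log2 difference 7.16 ± 0.66, adjusted p = 6.36e-10). Replicate 4 at 4 h without IL-25 listed Hist1h2ap at 0 while its copy Hist1h2ao stood at 14.5 TPM there, so the copies are also given as a sum. Summed, Hist1h2an, Hist1h2ao and Hist1h2ap reached 3239 TPM at 48 h, against 27.1 TPM at 4 h without IL-25 (log2 difference 6.92). Alone, Hist1h2an had 65.6, 91.2, 57.5 and 39.1 TPM at 48 h and was listed at 0 in all 4 libraries at 4 h without IL-25. Hist1h2ao had 4.79, 8.48, 3.84 and 15.1 TPM at 48 h, against 0, 0, 0 and 14.5 TPM at 4 h, so that single-copy values overlapped between the times where the sum did not.

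H2ac11, which faces H2bc11 across 248 bases, had 72.8, 116, 131 and 72.3 TPM at 48 h and was listed at 0 in all 4 libraries at 4 h without IL-25. H2ac10 had 29.2, 37.4, 31.5 and 29.8 TPM at 48 h and was listed at 0 in all 4 libraries at 4 h. H2ac15 had 12.9, 20.8, 13.9 and 9.28 TPM at 48 h and was listed at 0 in all 4 libraries at 4 h. These 3 H2A genes thus had no listed transcript at 4 h without IL-25 and 10 TPM or more on average at 48 h. With IL-25, H2ac11 was listed at 2.15 and 2.53 TPM in 2 libraries at 4 h. H2ac13 had 23.2, 25, 57 and 6.73 TPM at 48 h, against 11, 0, 2.52 and 0 TPM at 4 h (log2 3.18, adjusted p = 1.11e-04). H2ac8 had 13.1, 19.9, 14.6 and 21.2 TPM at 48 h, against 0.91, 0, 1.39 and 0 TPM at 4 h (log2 3.61, adjusted p = 2.44e-11). H2ac4 had 13.1, 18.8, 6.66 and 26.5 TPM at 48 h, against 0, 0, 1.49 and 0 TPM at 4 h (log2 3.63, adjusted p = 1.70e-09). For H2ac8 and H2ac4 the libraries of the 2 times did not overlap. H2ac20, on chromosome 3, had 12.3, 18.9, 14.1 and 16.6 TPM at 48 h, against 3.83, 3.56, 2.22 and 2.86 TPM at 4 h (log2 2.00, adjusted p = 8.41e-07). H2ac7 averaged 7.95 TPM at 48 h and was listed at 0 at 4 h, and H2ac6 averaged 1.23 ± 0.813 and 0.708 ± 0.497 TPM (log2 difference 0.36, not called). With IL-25 H2ac6 reached 0.855 TPM at 48 h, against 0.085 TPM at 4 h, and was called (log2 0.76, adjusted p = 0.00456).

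The summed level of H2ac18 and H2ac19 fell while most members rose. These H2A genes share 219 of 300 promoter bases in 1 unbroken run and are known as near-identical copies. Without IL-25, H2ac19 had 0, 0, 9.74 and 0 TPM at 48 h, against 55.2, 37.7, 38.4 and 46.8 TPM at 4 h. H2ac18 had 23.3, 25.1, 22.3 and 28.4 TPM at 48 h, against 29.8, 37, 37.8 and 44 TPM at 4 h. Their sum, which does not depend on how reads were split between them, was 23.3, 25.1, 32 and 28.4 TPM at 48 h, against 85, 74.7, 76.2 and 90.8 TPM at 4 h (log2 difference -1.56 ± 0.15, adjusted p = 2.80e-09). With IL-25 the sum was 17.8, 19.4, 22.7 and 20.8 TPM at 48 h, against 68.5, 59.8, 42.2 and 50.6 TPM at 4 h (log2 difference -1.39 ± 0.15, adjusted p = 1.30e-08). In both conditions every library at 48 h lay below every library at 4 h. Summing these copies was chosen after their values were seen.

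Among H2B genes, 8 of 9 were higher at 48 h without IL-25 and 7 with it. H2bc11 had 45.5, 52.8, 61.2 and 45.3 TPM at 48 h, against 3.18, 3.03, 1.41 and 1.2 TPM at 4 h without IL-25 (log2 difference 4.08 ± 0.30, adjusted p = 1.18e-11). H2bc12 had 32.3, 50.4, 39.9 and 32.3 TPM at 48 h and was listed at 0 in all 4 libraries at 4 h. H2bc14 had 8.28, 10.1, 7.06 and 5.65 TPM at 48 h and was listed at 0 in all 4 libraries at 4 h. Transcripts of H2bc12 and H2bc14 were thus listed only in the later group of this pair. H2bc8 had 4.46, 7.65, 15.1 and 4.33 TPM at 48 h, against 0, 0, 0.96 and 0.74 TPM at 4 h (log2 2.55, adjusted p = 1.02e-06). H2bc4, whose RefSeq span is long for a histone gene, had 20.8, 20.8, 11.9 and 24.8 TPM at 48 h, against 12.8, 9.33, 13.7 and 8.54 TPM at 4 h (log2 0.75, adjusted p = 0.00424), and with IL-25 its difference was 0.40 (adjusted p = 0.102). H2bc6, H2bc9, H2bc21 and Hist1h2bq averaged 1.63, 1.01, 1.58 and 1.91 TPM at 48 h, against 0.312, 0.06, 0.892 and 0.495 TPM at 4 h. All but H2bc21 were called higher without IL-25, and all but Hist1h2bq with it.

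All 10 H3 genes were higher at 48 h in both conditions. H3c11 had 198, 262, 219 and 227 TPM at 48 h, against 5.61, 2.01, 3.7 and 1.57 TPM at 4 h without IL-25 (log2 difference 5.84 ± 0.31, adjusted p = 2.34e-14). H3c13 had 105, 133, 107 and 156 TPM at 48 h, against 9.42, 3.33, 1.08 and 5.2 TPM at 4 h (log2 difference 4.67 ± 0.37, adjusted p = 5.35e-11). H3c3 had 32.9, 44.8, 44.6 and 44.3 TPM at 48 h, against 0, 0.84, 0 and 0 TPM at 4 h (log2 difference 5.18 ± 0.23, adjusted p = 8.57e-16). These genes held the largest part of the H3 total, and no library at 48 h fell into the range at 4 h. H3c15 had 29.8, 43.5, 28.5 and 44.3 TPM at 48 h, against 0, 0, 0.39 and 0 TPM at 4 h (log2 5.08, adjusted p = 2.22e-16). H3c8 had 9.09, 11.6, 17.3 and 13.1 TPM at 48 h and was listed at 0 in all 4 libraries at 4 h. H3c10 had 12.3, 36.8, 4.13 and 9.88 TPM at 48 h and was listed at 0 in all 4 libraries at 4 h. H3c6 had 15.4, 8.17, 8.73 and 11.2 TPM at 48 h, against 0.58, 1.92, 2.03 and 0.44 TPM at 4 h (log2 2.45, adjusted p = 4.47e-08). Unlike the 3 genes before, it was above 0 in every library at 4 h without IL-25. H3c14, a near-identical copy of H3c15 that shares 231 of 300 promoter bases with it, averaged 4.06 TPM at 48 h and was listed at 0 at 4 h. H3c4 averaged 2.9 and 0.13 TPM and H3c7 3.33 and 0.708 TPM at 48 h and 4 h (log2 differences 1.81 and 1.38).

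Among H4 genes, 6 of 8 were higher at 48 h without IL-25 and 7 with it. H4c9 had 15.9, 28.5, 29.7 and 20.7 TPM at 48 h, against 5.73, 1.33, 4.38 and 2.87 TPM at 4 h without IL-25 (log2 difference 2.50 ± 0.27, adjusted p = 1.79e-08). H4c4 had 16, 18.8, 12.8 and 22.5 TPM at 48 h, against 0.77, 0.71, 0 and 1.52 TPM at 4 h (log2 difference 3.45 ± 0.23, adjusted p = 3.32e-12). H4c3 had 6.1, 8.79, 9.3 and 10.1 TPM at 48 h, against 1.2, 2.21, 2.09 and 2.59 TPM at 4 h (log2 1.67, adjusted p = 1.76e-06). Libraries of the 2 times did not overlap for these H4 genes. H4c2 had 7.64, 9.42, 8.89 and 8.84 TPM at 48 h and was listed at 0 in all 4 libraries at 4 h. H4c8 and H4c14 averaged 9.99 and 2.65 TPM at 48 h, against 4.42 and 0.593 TPM at 4 h. Hist1h4m had 8.66, 20.6, 25.8 and 8.12 TPM at 48 h, against 0, 7.3, 11.7 and 4.86 TPM at 4 h, and its copy Hist1h4n had 11.2, 2.75, 7.62 and 12.5 TPM at 48 h, against 18.7, 2.81, 0 and 9.94 TPM at 4 h. Single values of this pair overlapped between the times, and their sum was higher at 48 h without IL-25 (log2 0.78, adjusted p = 0.02) and with it (log2 1.78, adjusted p = 4.90e-06).

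Other genes of DNA replication were higher too. All 25 genes of a list for S phase and cycling were higher at 48 h without IL-25 (median log2 difference 2.93) and with it (3.33). Among them Rrm2, a subunit of ribonucleotide reductase, had 269, 329, 370.5 and 304 TPM at 48 h, against 3.7, 5.79, 3.97 and 2.69 TPM at 4 h without IL-25. Mki67, a marker of cycling cells, had 14.1, 21.4, 26.6 and 23.1 TPM at 48 h, against 0.88, 0.41, 0.85 and 0.03 TPM at 4 h. Of 25 histone chaperone and import genes, 10 were higher and 9 lower without IL-25, with the replication chaperones Asf1b (log2 5.13, adjusted p = 5.90e-15) and Chaf1b (log2 3.31, adjusted p = 7.20e-17) among the higher ones. Of 23 genes for transcription, processing and decay of histone transcripts, 4 were higher and 10 lower, with Slbp higher (log2 1.57, adjusted p = 5.40e-15) and Npat lower (log2 -0.84, adjusted p = 9.40e-05). Of 9 replacement and variant histone genes outside the clusters, 6 were higher and 1 was lower (median 0.78). H3f3a and H3f3b, which encode the replacement histone H3.3, differed by 0.78 and -0.25 (adjusted p = 2.80e-11 and 4.80e-05). Of 10 genes of quiescence and cell cycle exit, 5 were higher and 2 lower.

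Markers of other cells also differed between these times. The haemoglobin genes Hba-a1 and Hba-a2, 2 of 5 red cell markers, summed to 479 to 553 TPM at 48 h, against 60.5 to 82.5 TPM at 4 h without IL-25. With IL-25 they summed to 8.71 to 19.4, against 5.6 to 9.37 TPM. The other red cell markers, Hbb-bs, Hbb-bt and Alas2, were not listed. Epcam and Krt18, 2 of 7 epithelial markers, summed to 95.9 to 113 TPM at 48 h, against 171 to 186 TPM at 4 h without IL-25, and to 35.1 to 40.5, against 87.7 to 99.8 TPM with IL-25. Cd3e and Cd3g, 2 of 10 T cell markers, summed to 82.4 to 129 TPM at 48 h, against 28.9 to 35.3 TPM at 4 h without IL-25, and to 24 to 29, against 15.9 to 25.5 TPM with IL-25. Cd79b and Sdc1, 2 of 7 markers of B and plasma cells, summed to 44.3 to 50.6 TPM at 48 h, against 25.9 to 30.4 TPM at 4 h without IL-25, and to 73.6 to 94.3, against 13.2 to 21.6 TPM with IL-25. The ranges thus lay apart between the times for all of these lists except T cell and red cell markers with IL-25, which overlapped. Whether such cells were present, and their part in the histone result, was not tested. The call of H4c8 was lost when any 1 of 4 libraries was left out without IL-25 (replicates 3 and 4 at 4 h, 1 and 2 at 48 h, adjusted p 0.062 to 0.12) and any 1 of 3 with IL-25 (replicate 1 at 4 h, 2 and 3 at 48 h, 0.059 to 0.067). That of Hist1h2ao without IL-25 was lost without any 1 of 5 (replicates 1, 2 and 3 at 4 h, 2 and 4 at 48 h, 0.066 to 0.1).

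**Figure D3:**
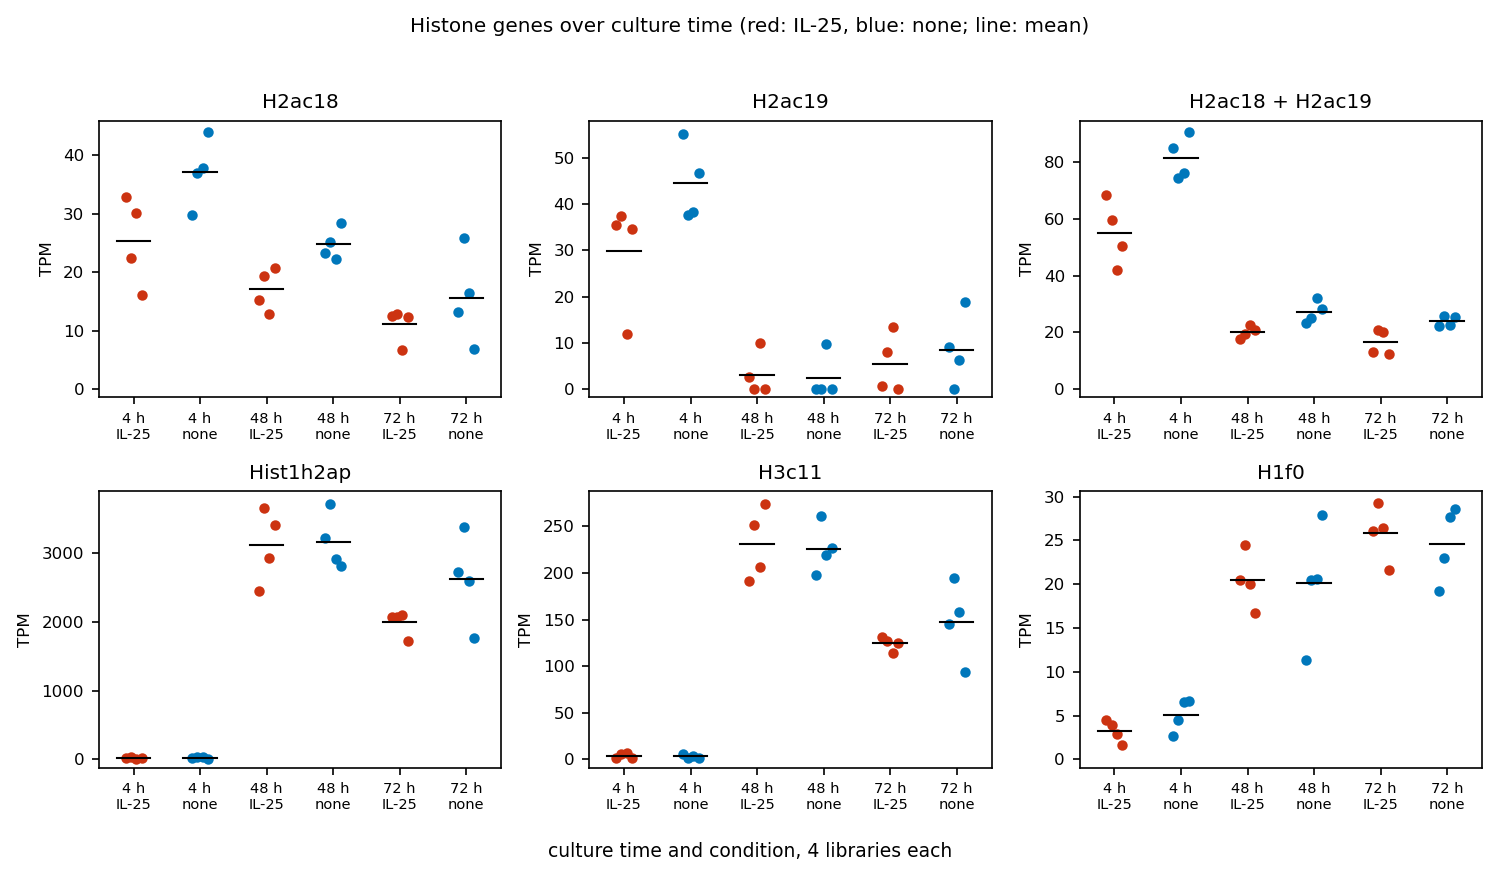
TPM of H2ac18, H2ac19, their sum, Hist1h2ap, H3c11 and H1f0 per library on linear axes from 0, by culture time and condition, with points for the 4 libraries and lines for the mean. The sum of H2ac18 and H2ac19 is highest at 4 h, where Hist1h2ap and H3c11 lie close to 0 on these axes.

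Fewer members were called between 48 and 72 h. Without IL-25, H2bc12 was the 1 member called, against 4 members after quantile normalization and 2 after median-of-ratios rescaling, with array weights or with a replicate block, where 0.379% of all genes were called, 0.284% higher and 0.0948% lower. H2bc12 had 19.2, 16.4, 26.4 and 17.5 TPM at 72 h, against 32.3, 50.4, 39.9 and 32.3 TPM at 48 h (log2 difference -0.93 ± 0.16, adjusted p = 0.00971), and its libraries did not overlap. That call was lost without replicate 2 at 48 h (adjusted p = 0.053) and in a fit of these groups alone (0.13). At an unadjusted p under 0.05, 15 members differed, but the share of all genes at that threshold was not computed, so this count is a description. The median log2 difference was -0.41 over the members and 0.05 over all genes.

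With IL-25, 5 members were lower at 72 h than at 48 h and 1 was higher (11 and 1 in a fit of these groups alone), where 31.2% of all genes were called, 13.4% higher and 17.9% lower, and the median was -0.40 over the members and -0.04 over all genes. H2bc12 had 39.3, 39.96, 48.3 and 31.7 TPM at 72 h, against 59.3, 81.1, 86.2 and 67.8 TPM at 48 h with IL-25 (log2 difference -0.87 ± 0.16, adjusted p = 1.58e-04). H2ac15 had 13.7, 5.71, 8.93 and 7.75 TPM at 72 h, against 13, 25.3, 24.9 and 17.8 TPM at 48 h (log2 difference -1.10 ± 0.27, adjusted p = 0.00237). H3c8 had 6.57, 8.19, 7.89 and 3.48 TPM at 72 h, against 8.72, 19, 12.2 and 9.92 TPM at 48 h (log2 difference -0.84 ± 0.28, adjusted p = 0.0224). For H2bc12 and H3c8 every library at 72 h lay below every library at 48 h, and for H2ac15 the highest value at 72 h exceeded the lowest at 48 h. H3c11 had 131, 127, 114 and 125 TPM at 72 h, against 191, 252, 207 and 274 TPM at 48 h (log2 difference -0.87 ± 0.31, adjusted p = 0.0317). H1f4 had 11, 9.76, 11.2 and 7.05 TPM at 72 h, against 13.9, 16.2, 16.4 and 12.3 TPM at 48 h (log2 difference -0.55 ± 0.19, adjusted p = 0.0253). Hist1h2bq, an H2B copy of low level, had 2.23, 2.35, 1.6 and 1.02 TPM at 72 h, against 0, 0, 1.73 and 0.01 TPM at 48 h (log2 difference 1.09 ± 0.27, adjusted p = 0.00247). Hist1h2ap, the most abundant member, had 2071, 2076, 2107 and 1721 TPM at 72 h, against 2450.4, 3662, 2929.8 and 3409.8 TPM at 48 h. Every library at 72 h lay below every library at 48 h, yet it was not called (log2 difference -0.63, SE 0.66, adjusted p = 0.518), with a standard error taken over all 6 culture groups, 1 library of which was at 0. Summed with its copies Hist1h2an and Hist1h2ao it differed by -0.63 (SE 0.26, adjusted p = 0.073), and in a fit of these groups alone Hist1h2ap was called (adjusted p = 0.002). The call of H1f4 was lost at a pseudocount of 0.1 TPM (adjusted p = 0.11), and that of H3c11 at this pseudocount (0.091), after median-of-ratios rescaling (0.051) and after quantile normalization (0.055). The call of H1f4 was also lost without replicate 2 or 3 at 48 h or 4 at 72 h (adjusted p 0.069 to 0.11), that of H3c8 without replicate 2 at 48 h or 4 at 72 h (0.1 to 0.11), and that of H3c11 without any 1 of 6 libraries (all but replicates 1 and 3 at 48 h, 0.051 to 0.085). Without replicate 2 at 48 h, and without replicate 4 at 72 h, 3 members were called.

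Related genes changed in the same interval with IL-25. Of the S phase list, 14 of 25 were lower at 72 h than at 48 h and none was higher (median -0.45), and of the chaperone list 13 were lower and 2 higher. Of 10 quiescence genes, 5 were higher and none lower (median 0.57). Without IL-25, no gene of the S phase, quiescence, processing or variant lists was called by limma and 1 chaperone gene was lower.

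Few members were called for IL-25, and in both directions. At 4 h, 1 of 45 was higher and 3 were lower with IL-25. Among all genes 40.3% passed the test, 13.4% higher and 26.9% lower. Being listed at 0 in all 8 libraries at 4 h, 7 of the 45 members could not be called there. They entered the tests only through later groups, and 15 members had a group listed at 0 in this comparison. The count of members at 4 h is therefore a description and is not set against the share of all genes. H2bc4 had 4.81, 4.13, 7.74 and 5.56 TPM with IL-25, against 12.8, 9.33, 13.7 and 8.54 TPM without it at 4 h (log2 difference -0.89 ± 0.22, adjusted p = 0.00185). H2ac20 had 1.76, 0, 2.15 and 0.9 TPM with IL-25, against 3.83, 3.56, 2.22 and 2.86 TPM without it (log2 difference -1.01 ± 0.28, adjusted p = 0.00479). H2ac6 had 0.11, 0.11, 0 and 0.12 TPM with IL-25, against 1.31, 0.57, 0.83 and 0.12 TPM without it (log2 difference -0.61 ± 0.23, adjusted p = 0.0362). H2bc4 and H2ac6, which lie 239 bases apart, were thus both lower at 4 h, while no other neighbouring pair had both genes called. At 48 and 72 h H2ac6 was not called. Libraries with IL-25 at 4 h lay below those without it for H2bc4. H2ac11 had 2.15, 2.53, 0 and 0 TPM with IL-25 and was at 0 in all 4 libraries without it (adjusted p = 0.0319), a call that rests on 2 libraries. The sum of H2ac18 and H2ac19, the highest members at 4 h, was lower with IL-25 (log2 -0.57, adjusted p = 0.0039). Calls were lost for H2ac20 after quantile normalization (adjusted p = 0.054), for H2ac6 after rescaling by the median of ratios (0.083) and after quantile normalization (0.18), and for H2ac11 in a fit of these groups alone (0.13). The call of H2ac6 was also lost without any 1 library but replicate 4 without IL-25 (adjusted p 0.052 to 0.14), that of H2ac11 without any 1 but replicates 3 and 4 with IL-25 (0.053 to 0.17), and 2 members were called when replicate 1 with IL-25 was left out. In TPM the median log2 difference of all genes with IL-25 was -0.12 at 4 h, -0.09 at 48 h and -0.20 at 72 h, and rescaling to the median of ratios brought it near 0. At 4 h the split of higher against lower members was 1 to 2 after rescaling and 1 to 1 after quantile normalization.

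At 48 h, 3 members were higher with IL-25 and 5 were lower, where 50.1% of all genes were called, 21.4% higher and 28.7% lower. H2bc12 had 59.3, 81.1, 86.2 and 67.8 TPM with IL-25, against 32.3, 50.4, 39.9 and 32.3 TPM without it at 48 h (log2 difference 0.92 ± 0.16, adjusted p = 4.02e-05). H4c9 had 43.9, 52.6, 41.9 and 44.3 TPM with IL-25, against 15.9, 28.5, 29.7 and 20.7 TPM without it (log2 difference 0.95 ± 0.27, adjusted p = 0.00503). H2bc14 had 10.1, 13.6, 11.1 and 18.9 TPM with IL-25, against 8.28, 10.1, 7.06 and 5.65 TPM without it (log2 difference 0.70 ± 0.25, adjusted p = 0.0238). The ranges for H2bc12 and H4c9 did not overlap. On the lower side, H2bc4 had 7.59, 5.37, 9.14 and 8.27 TPM with IL-25, against 20.8, 20.8, 11.9 and 24.8 TPM without it (log2 difference -1.24 ± 0.22, adjusted p = 3.58e-05). H2ac10 had 15, 12.3, 16.5 and 10.9 TPM with IL-25, against 29.2, 37.4, 31.5 and 29.8 TPM without it (log2 difference -1.18 ± 0.20, adjusted p = 2.45e-05). Hist1h2bq had 0, 0, 1.73 and 0.01 TPM with IL-25, against 2.89, 1.51, 1.56 and 1.68 TPM without it (log2 difference -1.15 ± 0.27, adjusted p = 8.43e-04). For H2bc4 and H2ac10 every library with IL-25 lay below every library without it. H3c14 and H3c15 were lower too, and summed they reached 27.4 ± 6.59 TPM with IL-25, against 40.6 ± 8.31 TPM without it (log2 -0.56, adjusted p = 0.034). The most abundant members did not pass the test: Hist1h2ap differed by -0.03 (95% interval -1.40 to 1.33) and H3c11 by 0.02 (-0.61 to 0.66). The interval of Hist1h2ap rests on a spread taken over all 6 culture groups, in which 1 library at 4 h was at 0. Summed with its copies Hist1h2an and Hist1h2ao it differed by -0.04 (SE 0.26, adjusted p = 0.92 by limma). After rescaling by the median of ratios the split was 5 higher to 4 lower, and after quantile normalization 6 to 3, with the shares of all genes not computed. Calls of H2bc14, H3c14 and H3c15 were lost at a pseudocount of 0.1 TPM (adjusted p = 0.28, 0.12 and 0.35), that of H3c14 also after quantile normalization (0.13), that of H3c15 after rescaling (0.11) and after quantile normalization (0.1), and all 3 on leaving out any 1 of 3, 3 and 5 libraries, among which replicates 2, 3 and 4 without IL-25 and 1, 3 and 4 with it occur (0.054 to 0.15).

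At 72 h, 7 members were higher with IL-25 and 3 were lower, where 48.5% of all genes were called, 15.3% higher and 33.2% lower. H4c2 had 15.7, 15.8, 14.9 and 11.8 TPM with IL-25, against 7.02, 2.34, 4.29 and 0 TPM without it at 72 h (log2 difference 2.16 ± 0.42, adjusted p = 1.46e-04). H2bc12 had 39.3, 39.96, 48.3 and 31.7 TPM with IL-25, against 19.2, 16.4, 26.4 and 17.5 TPM without it (log2 difference 0.98 ± 0.16, adjusted p = 2.22e-05). H3c10 had 13.2, 20.02, 19.9 and 16.6 TPM with IL-25, against 15, 10.3, 7.59 and 4.77 TPM without it (log2 difference 0.90 ± 0.36, adjusted p = 0.0431). H3c7 had 5.19, 3.28, 3.91 and 4.3 TPM with IL-25, against 2.43, 1.62, 2.33 and 1.04 TPM without it (log2 difference 0.87 ± 0.25, adjusted p = 0.0057), and as for H2bc12 no library without IL-25 reached the libraries with it. H4c14, Hist1h2bq and H2bc9, all under 5 TPM, averaged 3.85, 1.8 and 1.56 TPM with IL-25, against 1.67, 0.713 and 0.84 TPM without it. H2bc4 had 12.2, 13.3, 7.32 and 11.3 TPM with IL-25, against 31.7, 25, 23.3 and 24 TPM without it (log2 difference -1.19 ± 0.22, adjusted p = 7.24e-05). H1f4 had 11, 9.76, 11.2 and 7.05 TPM with IL-25, against 13.5, 18.2, 14.6 and 12 TPM without it (log2 difference -0.54 ± 0.19, adjusted p = 0.0205). H2ac10 had 7.43, 15.3, 14.1 and 17.3 TPM with IL-25, against 13.7, 26, 16.4 and 20.2 TPM without it (log2 difference -0.49 ± 0.20, adjusted p = 0.0458). H2bc4 was thus lower with IL-25 at all 3 times. H4c9 had 28.6, 37.1, 36.5 and 37.2 TPM with IL-25, against 21.6, 28.1, 18.75 and 22.9 TPM without it at 72 h. Its ranges did not overlap, yet H4c9 was not called in the main fit. By limma it was called after rescaling by the median of ratios (adjusted p = 0.012), after quantile normalization (0.015) and in a fit of these groups alone (0.0042). The sum of Hist1h4m and Hist1h4n was higher with IL-25 at 72 h, with 34.3, 37, 31.5 and 43 TPM, against 10.5, 16, 18.3 and 13.2 TPM without it (log2 1.29, adjusted p = 5.50e-04).

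The count at 72 h depended on scaling. After rescaling by the median of ratios 15 members were higher with IL-25 and 1 was lower, and after quantile normalization 16 and 1. The shares of all genes called under these scalings were not computed, so the counts cannot be set against them. At a pseudocount of 0.1 TPM only H2bc4, H2bc12 and H4c2 were called. Calls of H1f4 and H2ac10 were lost after rescaling (adjusted p = 0.15 and 0.27) and after quantile normalization (0.21 and 0.3), and those of H2ac10 and H2bc9 in a fit of these groups alone (0.13 and 0.078). Calls of H1f4, H2ac10, H2bc9, H3c10, H4c14 and Hist1h2bq were each lost without any 1 of 2 to 5 libraries (adjusted p 0.052 to 0.27), and each of the 8 libraries ended at least 1 of these calls. Without replicate 2 with IL-25, 6 members were called.

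Of the 25 genes of the S phase list, 3 were higher and 6 lower with IL-25 at 4 h, 5 were higher and 2 lower at 48 h, and none was higher and 3 were lower at 72 h. Haemoglobin genes moved with IL-25 as well, at 8.71 to 19.4 TPM with it, against 479 to 553 TPM without it at 48 h, and at 8.71 to 20.9, against 633 to 798 TPM at 72 h. Cd3e and Cd3g, 2 of 10 T cell markers, summed to 24 to 29 TPM with IL-25, against 82.4 to 129 TPM without it at 48 h. Cd79b and Sdc1 summed to 73.6 to 94.3 TPM with IL-25, against 44.3 to 50.6 TPM without it at 48 h, and to 133 to 158, against 38.2 to 47.5 TPM at 72 h. Epcam and Krt18 summed to 87.7 to 99.8 TPM with IL-25, against 171 to 186 TPM without it at 4 h, and to 35.1 to 40.5, against 95.9 to 113 TPM at 48 h. Their part in the IL-25 results was not tested.

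Whether the IL-25 difference itself changed with time was tested as an interaction. Between 4 and 48 h it changed for 4 members, where 27.9% of all genes were called, 17.2% upwards and 10.7% downwards. H4c9 (log2 change 1.60, adjusted p = 0.00245) and H2bc12 (0.92, 0.00338) moved upwards, and H2ac10 (-1.18, 0.00242) and H2ac11 (-1.25, 0.0405) moved downwards. H2ac10 and H2bc12 were listed at 0 in both groups at 4 h, so for them the change equals the difference at 48 h. Between 48 and 72 h it changed upwards for H4c2 (1.80, adjusted p = 0.0415) and Hist1h2bq (1.89, 0.001), where 14.7% of all genes were called, 5.22% upwards and 9.5% downwards. The call of H2ac11 was lost after rescaling (adjusted p = 0.065) and in a fit of these groups alone (0.074), and that of H4c2 at a pseudocount of 0.1 TPM (0.18) and in a fit of these groups alone (0.059). Both were also each lost without any 1 of 11 of the 16 libraries behind them (adjusted p 0.053 to 0.1), H2ac11 keeping its call only without replicates 3 or 4 with IL-25 at 4 h, 1 or 4 without it at 48 h or 2 with it at 48 h, and H4c2 only without replicates 2 or 3 with IL-25 at 48 h, 1 or 3 without it at 72 h or 4 with it at 72 h.

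**Figure D4:**
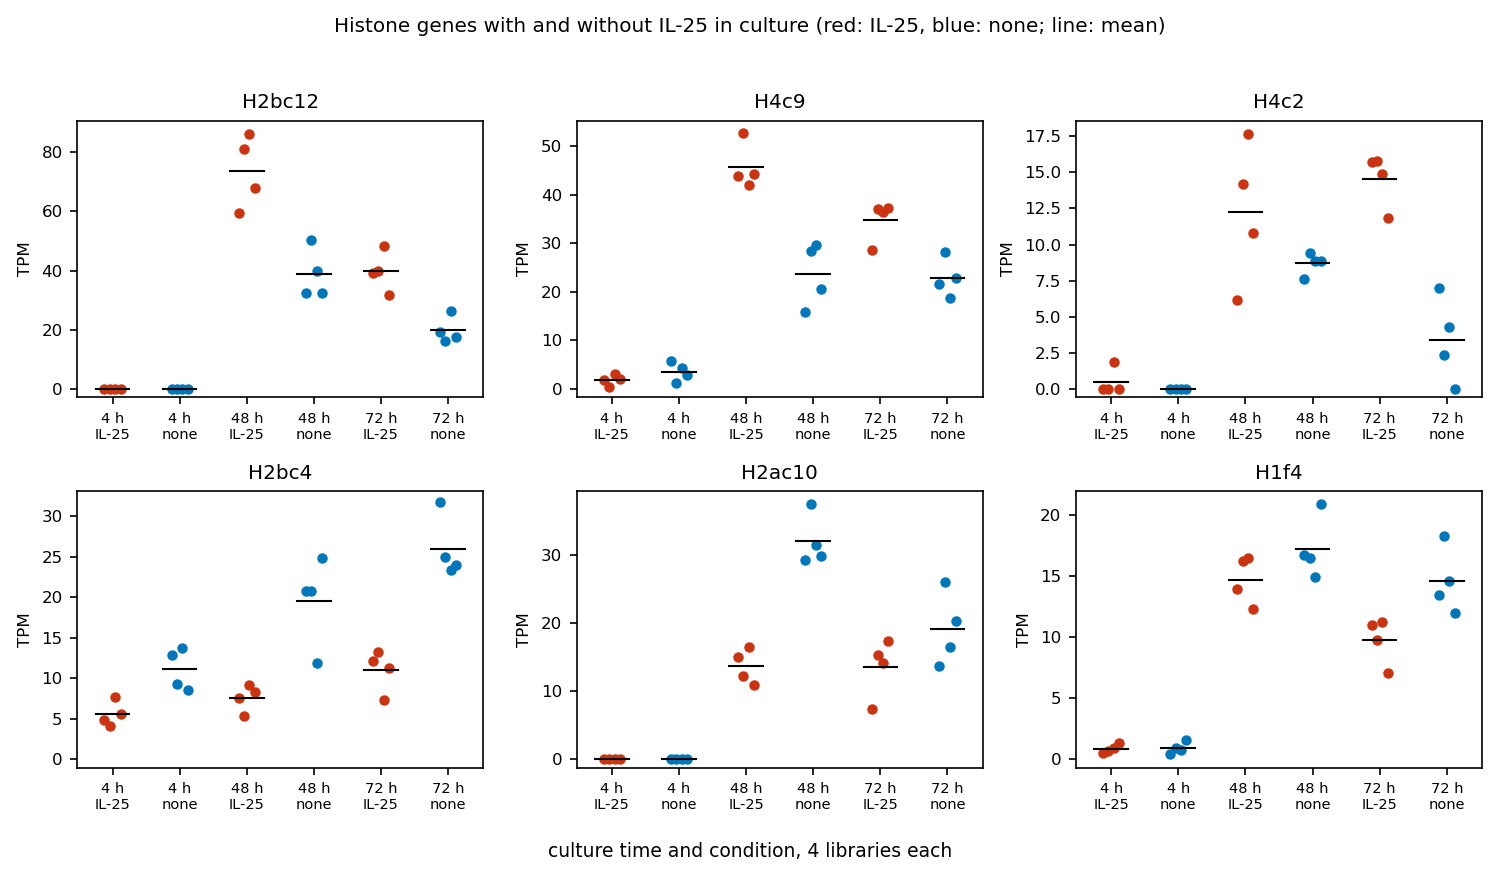
TPM of H2bc12, H4c9, H4c2, H2bc4, H2ac10 and H1f4 per library on linear axes from 0, by culture time and condition, with points for the 4 libraries and lines for the mean. H2bc12 and H4c9 lie higher with IL-25 at 48 and 72 h, although in the main fit H4c9 was called at 48 h and not at 72 h. H2bc4 lies lower with IL-25 at all 3 times.

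Rxrg deletion was compared within nILC2 and within iILC2. In nILC2, 1 of 33 members was called, where 1.54% of all genes were called, 0.943% higher and 0.596% lower. Hist1h4m had 12.1, 13.7, 12.3 and 15.2 TPM in nILC2 KO, against 29, 21.2, 19.8 and 18.6 TPM in nILC2 CTRL (log2 difference -0.68 ± 0.17, adjusted p = 0.0499), and no KO library reached the CTRL range. That call was lost at a pseudocount of 0.1 TPM (adjusted p = 0.056), after quantile normalization (0.053), with array weights (0.056), in a fit of these groups alone (0.2) and without any 1 of 6 libraries (nILC2 CTRL replicates 1, 3 and 4, KO replicates 2, 3 and 4, 0.071 to 0.13), and 3 members were called, 2 higher and 1 lower, when KO replicate 1 was left out. H2ac19 had 19.4, 0, 11.5 and 0 TPM in nILC2 KO, against 24.6, 31.4, 10.03 and 8.49 TPM in nILC2 CTRL and was not called (adjusted p = 0.259), and its sum with H2ac18 was 20.5 ± 3.14 TPM in KO, against 29.6 ± 6.88 TPM in CTRL (adjusted p = 0.11). Hist1h2ap had 1155, 1902, 2618 and 2432 TPM in nILC2 KO, against 1749, 1934, 1973 and 1523 TPM in nILC2 CTRL (log2 difference 0.12, 95% interval -0.25 to 0.48). KO replicate 1 was the lowest of the 8 for Hist1h2ap, and 2 KO libraries lay above all CTRL libraries.

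In iILC2, none of 33 members was called by limma and 0% of all genes were called. At an unadjusted p under 0.05, Hist1h4m alone differed, and it had 19.4, 17.8, 19.6 and 23.8 TPM in iILC2 KO, against 26.5, 33.2, 29 and 18.8 TPM in iILC2 CTRL (log2 difference -0.37, adjusted p = 1). Hist1h2ap had 4074, 4271, 3980.4 and 5009 TPM in iILC2 KO, against 4721, 5235, 4791 and 4301 TPM in iILC2 CTRL (log2 difference -0.14, 95% interval -0.50 to 0.23). H3c11 had 339.8, 319, 321 and 436 TPM in iILC2 KO, against 379, 350.1, 376 and 346 TPM in iILC2 CTRL (log2 difference -0.05, 95% interval -0.45 to 0.36). The KO and CTRL ranges of both genes overlapped. The difference between the KO effects in iILC2 and nILC2 was called for no member by limma, with 0% of all genes called and 2 members (H2ac20 and H3c8) at an unadjusted p under 0.05. The share of all genes at this unadjusted threshold was not computed for either comparison. The S phase list had no call in either cell type, with medians of 0.37 in nILC2 and -0.06 in iILC2.

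Many clustered histone genes were higher in iILC2 than in nILC2. In CTRL, 18 of 33 members were higher and H2bc6 was lower, where 45.5% of all genes were called and 21.9% were higher, and the median log2 difference was 0.79 over the members and -0.03 over all genes. In KO, 13 were higher and none was lower, where 31.4% of all genes were called and 13.8% were higher, and the medians were 0.60 and -0.05. KO libraries of both cell types with the same replicate number correlated weakly in their deviations (r = 0.102 to 0.231), and the labels state no pairing. With a replicate block, which was shared by all 4 groups of this table and so also tied KO to CTRL libraries, 17 were higher in KO. The share of all genes called with the block was not computed. By limma with this block, calls were gained for H1f0 (adjusted p = 0.0034), H2ac11 (0.033), H2bc11 (0.038), H2bc12 (0.02) and H3c4 (0.042) and lost for H1f4. Both contrasts were higher for 9 members, H1f5, H2ac4, H2ac8, Hist1h2ap, H3c3, H3c11, H3c13, H3c15 and H4c9. The interaction above is also the test of whether the iILC2 difference changed with KO, and it was called for no member. By class in CTRL, 2 of 4 H1, 5 of 10 H2A, 3 of 8 H2B, 6 of 7 H3 and 2 of 4 H4 genes were higher.

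Among linker histones, H1f5 had 18.9, 16.1, 14.3 and 12.5 TPM in iILC2 CTRL, against 9.68, 6.35, 4.58 and 3.06 TPM in nILC2 CTRL (log2 difference 1.33 ± 0.27, adjusted p = 5.26e-04), and H1f0 had 10.1, 24.4, 24.7 and 20.6 TPM in iILC2 CTRL, against 4.26, 11, 9.83 and 6.34 TPM in nILC2 CTRL (log2 difference 1.24 ± 0.33, adjusted p = 0.00477). In KO, H1f5 had 22.1, 15.9, 11.1 and 16.4 TPM in iILC2, against 5.71, 11.6, 8.37 and 6.13 TPM in nILC2 (log2 difference 0.97 ± 0.27, adjusted p = 0.01). H1f0 averaged 16 ± 7.38 TPM in iILC2 KO and 8.68 ± 3.24 TPM in nILC2 KO and was called there with the replicate block but not without it (adjusted p = 0.0823). H1f4 averaged 8.63 TPM in iILC2 KO and 5.69 TPM in nILC2 KO (log2 0.56, adjusted p = 0.0489), a call lost with a block on the replicate number (adjusted p = 0.057), at a pseudocount of 0.1 TPM (0.051) and in a fit of these groups alone (0.068). H1f2 averaged 8.45 TPM in iILC2 CTRL and 6.42 TPM in nILC2 CTRL, with no call.

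Of the H2A genes, Hist1h2ap had 4721, 5235, 4791 and 4301 TPM in iILC2 CTRL, against 1749, 1934, 1973 and 1523 TPM in nILC2 CTRL (log2 difference 1.41 ± 0.17, adjusted p = 2.87e-06). In KO it had 4074, 4271, 3980.4 and 5009 TPM in iILC2, against 1155, 1902, 2618 and 2432 TPM in nILC2 (log2 difference 1.16 ± 0.17, adjusted p = 5.52e-05). The libraries of iILC2 lay above those of nILC2 in both genotypes. H2ac8 had 22.8, 26, 19.1 and 27.7 TPM in iILC2 CTRL, against 8.31, 17.1, 6.34 and 12.1 TPM in nILC2 CTRL (log2 1.13, adjusted p = 8.08e-04). H2ac4 had 21.7, 12.3, 17.8 and 12.6 TPM in iILC2 CTRL, against 3.69, 7.74, 8.6 and 6.63 TPM in nILC2 CTRL (log2 1.17, adjusted p = 0.00659). H2ac11 had 67, 64.2, 53.4 and 74.2 TPM in iILC2 CTRL, against 27.3, 46, 28.1 and 36.7 TPM in nILC2 CTRL (log2 0.91, adjusted p = 0.00129). These genes, together with H2ac20 (13.6 TPM in iILC2 CTRL and 6.27 TPM in nILC2 CTRL), were the H2A members called in CTRL. In KO, H2ac15 had 14, 13.8, 15.6 and 21.3 TPM in iILC2, against 1.23, 8.18, 8.45 and 5.86 TPM in nILC2 (log2 1.49, adjusted p = 0.00172). The sum of H2ac18 and H2ac19 was lower in iILC2 CTRL, at 18, 24.5, 16.7 and 18.4 TPM, against 30.01, 39.2, 23.8 and 25.6 TPM in nILC2 CTRL (log2 -0.57, adjusted p = 0.0089), and in KO it was 20.8 ± 3.13 TPM in iILC2 and 20.5 ± 3.14 TPM in nILC2 (adjusted p = 0.94).

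Of the H2B genes, H2bc12 had 25.1, 49.3, 30.6 and 33.6 TPM in iILC2 CTRL, against 17.6, 23, 14.3 and 22.6 TPM in nILC2 CTRL (log2 0.79, adjusted p = 0.0055). H2bc11 had 40.6, 68.1, 46.3 and 42.8 TPM in iILC2 CTRL, against 34.5, 42.7, 20.5 and 20.5 TPM in nILC2 CTRL (log2 0.76, adjusted p = 0.00848). H2bc6 had 2.2, 2.58, 1.81 and 1.68 TPM in iILC2 CTRL, against 3.56, 4.95, 3.28 and 3.95 TPM in nILC2 CTRL (log2 -0.68, adjusted p = 0.00391), the 1 member that was lower in iILC2, a call lost after quantile normalization (adjusted p = 0.11). H2bc9 averaged 2.18 TPM in iILC2 CTRL and 0.635 TPM in nILC2 CTRL and was called, and H2bc8 and H2bc21 were not called in either genotype. H2bc14 had 10.9, 10.7, 8.68 and 13.6 TPM in iILC2 KO, against 2.1, 6.02, 2.35 and 5.29 TPM in nILC2 KO (log2 1.36, adjusted p = 0.0192). H2bc4, which was lower with IL-25 in culture, averaged 16.6 ± 3.56 TPM in iILC2 CTRL and 21.8 ± 11.1 TPM in nILC2 CTRL, with no call.

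Of the H3 genes, H3c11 had 379, 350.1, 376 and 346 TPM in iILC2 CTRL, against 157, 175, 125 and 120.4 TPM in nILC2 CTRL (log2 difference 1.34 ± 0.19, adjusted p = 1.56e-05). H3c13 had 89.9, 133, 104 and 70.7 TPM in iILC2 CTRL, against 32.4, 45.8, 43.8 and 36.9 TPM in nILC2 CTRL (log2 difference 1.28 ± 0.22, adjusted p = 1.34e-04). H3c8 had 14.9, 14.4, 19.5 and 16.9 TPM in iILC2 CTRL, against 5.15, 8.74, 5.31 and 2.33 TPM in nILC2 CTRL (log2 difference 1.54 ± 0.28, adjusted p = 1.85e-04). No library of nILC2 reached the iILC2 range for these 3 genes. H3c15 had 22.2, 20.5, 18.8 and 16.5 TPM in iILC2 CTRL, against 9.01, 9.2, 9.48 and 6.09 TPM in nILC2 CTRL (log2 1.13, adjusted p = 2.79e-04). H3c3 had 27.9, 32.5, 34 and 23.7 TPM in iILC2 CTRL, against 15.7, 22, 21.4 and 10.2 TPM in nILC2 CTRL (log2 0.78, adjusted p = 0.00341). H3c4 averaged 4.96 TPM in iILC2 CTRL and 1.39 TPM in nILC2 CTRL and was called, and H3c6, at 6.77 and 6.28 TPM, was not. In KO, H3c11 (log2 1.05, adjusted p = 3.63e-04), H3c13 (log2 1.27, adjusted p = 2.80e-04), H3c15 (log2 1.43, adjusted p = 5.16e-05) and H3c3 (log2 0.56, adjusted p = 0.0375) were higher.

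Of the H4 genes, H4c9 had 111, 133, 143 and 109 TPM in iILC2 CTRL, against 62.7, 67.9, 59.2 and 48.4 TPM in nILC2 CTRL (log2 difference 1.04 ± 0.15, adjusted p = 1.68e-05). In KO it had 124, 114, 107 and 106 TPM in iILC2, against 48.7, 69.99, 74.5 and 92.2 TPM in nILC2 (log2 difference 0.69 ± 0.15, adjusted p = 0.00178). H4c9 was the highest H4 gene in all 4 groups of this table. H4c3 averaged 8.89 ± 1.12 TPM in iILC2 CTRL and 4.88 ± 2.31 TPM in nILC2 CTRL (log2 0.84, adjusted p = 0.0109). H4c4 averaged 7.56 and 5.13 TPM there, and Hist1h4m 26.9 and 22.1 TPM, with no call in CTRL.

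Genes of replication were also higher in iILC2. All 25 of the S phase list were higher in CTRL (median 0.98) and 22 of 25 in KO (0.57). Rrm2 had 618, 711, 646 and 613 TPM in iILC2 CTRL, against 275, 341, 288 and 191 TPM in nILC2 CTRL. Of 25 chaperone and import genes, 17 were higher and 4 lower in CTRL, and 9 were higher and 3 lower in KO. Of 9 variant histone genes, 8 were higher in CTRL and 6 in KO. Of 12 quiescence genes, 4 were higher and 2 lower in CTRL. Cd79b and Sdc1, 2 of 7 markers of B and plasma cells, summed to 239 to 284 TPM in iILC2 CTRL, against 117 to 155 TPM in nILC2 CTRL, while Ms4a1, Jchain and Pax5 were not listed. Cd68 and Itgam, 2 of 7 myeloid markers, summed to 8.34 to 13.7 TPM in iILC2 CTRL, against 0.79 to 4 TPM in nILC2 CTRL. Cd3g and Cd5, 2 of 10 T cell markers, summed to 6.97 to 25.2 TPM in iILC2 CTRL, against 50.5 to 83.2 TPM in nILC2 CTRL. The 12 ILC2 markers summed to 1093 to 1162 TPM in iILC2 CTRL, against 2484 to 2811 TPM in nILC2 CTRL. In KO, the ranges of these lists also lay apart in the same directions, except for T cell markers, which overlapped. The part of such cells in the result was not tested. In KO, calls of H1f4, H2ac4, H2bc14, H3c3 and Hist1h4m were lost on leaving out single libraries (adjusted p 0.051 to 0.17), and each of the 8 KO libraries ended at least 1 of these calls.

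**Figure D5:**
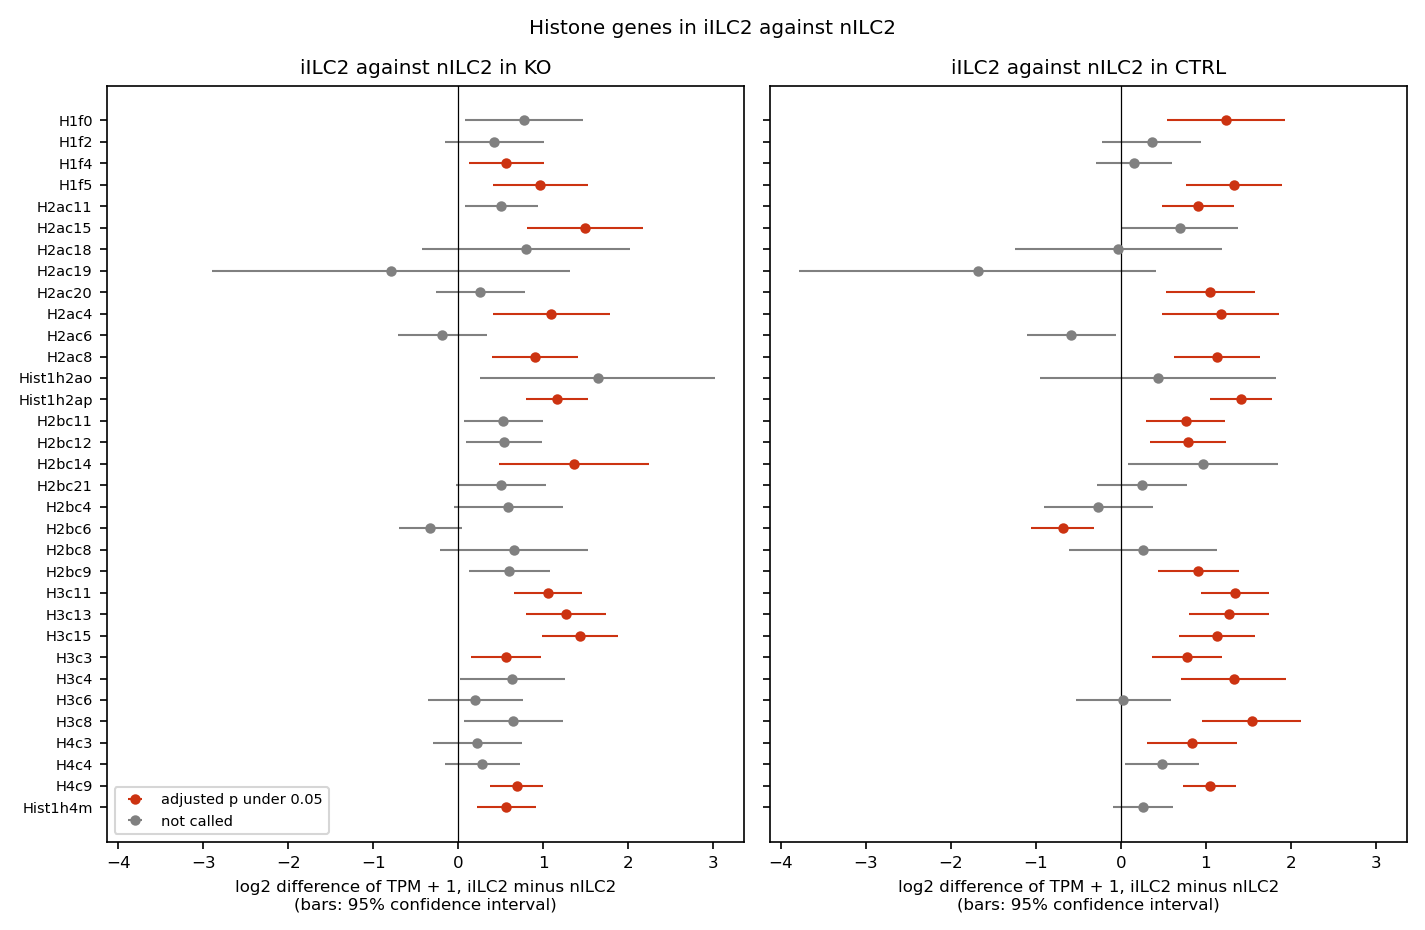
Log2 difference of TPM + 1 between iILC2 and nILC2, in KO and in CTRL, for each of the 33 members, with bars for the 95% confidence interval and red points for members called at an adjusted p under 0.05. Most members lie above 0 in both genotypes, and H2bc6, H2ac6 and H2ac19 lie below 0 in both.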

How the data were processed

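RNA was measured by Smart-seq2 in 24 culture libraries and 16 libraries of nILC2 and iILC2. The authors deposited TPM per gene in 2 tables, and the submitters' processing notes name cutadapt 2.10, STAR 2.7.5c, RSEM 1.3.3 and mm10, with no role or order stated. The filter that chose the listed genes is not given in the sources used here, and TPM keep no depth, so no counting error could be given. The 14 chromatin samples of the 54 were not analysed here.

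Libraries were grouped from their titles. The 2 tables were fitted separately by limma 3.58.1 (trend) in R 4.3.3 on log2(TPM + 1), with 1 mean per group, for genes at 1 TPM or more in 4 or more libraries (10548 of 10799 in culture, 10069 of 10176 in the other). All 45 and all 33 members passed. Benjamini-Hochberg adjustment covered every gene tested in a table, and the procedure was tested on simulated data. The members and lists were chosen with earlier results of these data known. Every member is named, values per library are given for members that reach a mean of 10 TPM and for up to 4 of the largest rises and falls called in a comparison, and other genes come from the related lists. Upstream sequences and spans are from RefSeq (GRCm38.p6).

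Alternatives were quantile normalization, a pseudocount of 0.1 TPM, rescaling to the median of ratios, no filter or one at 5 TPM, fits of the compared groups alone, array weights, the replicate number in the titles as a block, and each library left out. Summing near-identical copies was added after seeing the data. Deviations of libraries with the same number correlated over 0.1 for all 4 numbers in 1 pair of groups, nILC2 KO with iILC2 KO (r = 0.188, 0.102, 0.231 and 0.145). That pairing comes from the data and not from the labels, and it is weak. For nILC2 CTRL with iILC2 CTRL, r was 0.253, 0.153, 0.133 and 0.049. The block gave 1 effect per replicate number to all groups of a table, also to pairs of groups without that correlation.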

Additional observations from a re-analysis of the deposited data

Results flagged for a closer look

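Among 283 sets of 4 values (members, class sums and sums of copies with a mean of 10 TPM or more in a group), 19 had 1 library standing apart from the other 3, where chance alone gives about 1 in 20. In culture with IL-25, replicate 3 was low for H2ac19 at 4 h (12 TPM), for Hist1h2an (34.9 TPM) and Hist1h4n (8.23 TPM) at 48 h, and for H2ac18 at 72 h (6.68 TPM). Also with IL-25, replicate 2 was high for H4c3 (18.8 TPM) and replicate 1 for Hist1h2ao (29.2 TPM) at 48 h, and replicate 1 was low for H4c9 at 72 h (28.6 TPM). Replicate 4 at 72 h with IL-25 was low for Hist1h2ap (1721 TPM) and for the sums that contain it, namely all H2A genes (1909 TPM), all members (2435 TPM), the members in both tables (2325 TPM) and the 3 copies Hist1h2an, Hist1h2ao and Hist1h2ap (1761 TPM). Without IL-25, replicate 1 was low for H3c3 at 48 h (32.9 TPM), and replicate 4 for the H2B sum at 72 h (90.2 TPM). In iILC2 KO, replicate 2 was high for H2ac20 (15.2 TPM), and replicate 3 was high for H2bc4 (27.2 TPM) and low for the sum of H2ac18 and H2ac19 (16.1 TPM). In CTRL, replicate 4 of iILC2 was low for H2ac15 (11.1 TPM), and replicate 3 of nILC2 was low for the H2B sum (77.2 TPM).

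The difference with IL-25 changed between times for 6 members in limma's interaction test. Between 4 and 48 h the log2 change was 1.60 for H4c9, 0.92 for H2bc12, -1.18 for H2ac10 and -1.25 for H2ac11. Between 48 and 72 h it was 1.80 for H4c2 and 1.89 for Hist1h2bq.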

How the results depend on the processing

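No called difference of a member changed sign under any alternative run, and differences not called were not checked for sign. Among the latter, Hist1h2ap with IL-25 at 4 h differed by 0.68 alone and by -0.30 when summed with its copies. Over all comparisons, 149 differences of members were called, of which 134 stayed called at a pseudocount of 0.1 TPM, 143 after rescaling by the median of ratios, 140 after quantile normalization, 148 with array weights, 141 with the compared groups alone, 149 with no filter, and 123 when each library was left out in turn. With a filter of 5 TPM, 122 of the calls could be tested again and all 122 stayed.

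Some counts of members called moved, and shares of all genes called were computed for the main fit only. IL-25 at 4 h gave 2 after quantile normalization. IL-25 at 48 h gave 5 at the lower pseudocount. IL-25 at 72 h gave 3 at the lower pseudocount, 16 after rescaling and 17 after quantile normalization. For 72 h against 48 h without IL-25, counts were 2 after rescaling, 4 after quantile normalization, 2 with array weights and 0 with the groups alone, and with IL-25 12 with the groups alone. The change of the IL-25 effect between 48 and 72 h gave 1 at the lower pseudocount, at 5 TPM and with the groups alone. KO in nILC2 gave 0 at the lower pseudocount, after quantile normalization, with array weights and with the groups alone. The causes were not tested. The summed level at 4 h without IL-25 was 144 TPM after rescaling and 149.6 after quantile normalization, and that at 72 h with IL-25 3198 after rescaling. The KO effect between cell types was not run with the compared groups alone, since it needs all 4.

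Leaving out 1 library gave 2 to 5 members for IL-25 at 4 h, 6 to 10 at 48 h and 6 to 10 at 72 h. It gave 38 to 40 for 48 h against 4 h without IL-25 and 40 to 42 with it, 0 to 2 for 72 h against 48 h without IL-25 and 3 to 7 with it, 3 to 5 and 1 to 2 for the changes of the IL-25 effect to 48 and to 72 h, 0 to 3 for KO in nILC2, 0 to 0 for KO in iILC2 and for the difference of KO effects, 19 to 22 for iILC2 in CTRL and 9 to 16 in KO. For 72 h against 48 h without IL-25, the count was 0 without replicate 2 at 48 h and 2 without replicate 1 at 72 h.

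With the replicate number as a block, 148 of the 149 calls stayed. The count for 72 h against 48 h without IL-25 was 2 with the block. That for iILC2 in KO, where libraries of the same number correlated weakly, was 17, with 5 calls gained and H1f4 losing its call (adjusted p = 0.057). The block ended no other call, and over all comparisons it added 12, among them these 5 in KO. Calls gained numbered 24 after quantile normalization and with the groups alone, 14 after rescaling, 8 with array weights, 2 at the lower pseudocount and with no filter, and 1 at 5 TPM. TPM give no depth, and members under 1 TPM in most libraries carry no stated counting error.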
